A study of Populus tremula x Populus alba with 14 samples.

Results

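A set of 100 genes whose transcript share varied least across hybrid poplar bark was examined. Members were chosen from the values themselves. Counts were expressed per 1000000 counts of their library (CPM), the 5374 genes with a mean of at least 50 CPM over 14 libraries were ranked by coefficient of variation (CV, the SD as a percent of the mean), and the 100 lowest were kept, of 41335 genes in the table. A low CV in these libraries is therefore the rule and not a finding. Differences between layers and ages are given for the members as descriptions, and the calls of tests run on the whole table are printed for them without being read as evidence.

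The libraries came from clone INRA 717-1B4 of hybrid poplar, a cross of Populus tremula and Populus alba, so all trees carried the wild-type genome of 1 clone. The trees stood in a greenhouse and were outdoors only in the growing season. Groups were old outer bark (phellem and phellogen; 4 libraries), old inner bark (secondary phloem and vascular meristem; 4 libraries), young outer bark (3 libraries) and young inner bark (3 libraries). Old stems were 6 to 8 mm and young stems 4 to 5.5 mm in diameter. The outer and inner libraries with the same stem number are treated as coming from 1 stem, which gives 7 stems (old stems 1 to 4 and young stems 1, 2 and 4), although the labels do not state this. Nothing in the labels says that the numbers stand for separate trees, so the spread between libraries may be partly technical.

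In a woody stem the phellogen divides to form phellem, the cork that seals the surface, while the vascular meristem adds phloem, which carries sugars, to the inner bark. Transcripts with a steady level are used as internal references in quantitative PCR: the signal of a gene of interest is divided by theirs, so a reference that itself differs between tissues or ages shifts every ratio. The table pairs no identifier with a gene name or product. No function is therefore given for any member, and neither the lists of usual reference genes nor the markers of cork, phloem, xylem, cambium and leaf could be filled, so the labelled tissues were not checked against markers.

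Library totals lay between 11944485 and 15980636 counts. Each member had at least 545 counts in every library, and all 100 passed the filter on low counts. CPM is a share of the library: fewer cells of a type and less RNA per cell cannot be told apart, and an unchanged share does not show an unchanged amount per cell. CPM is not corrected for transcript length, so the values of different genes are not compared with each other. The scaling factors computed by TMM, a method that sets the bulk of genes level between libraries, were 0.837 and 0.87 for the outer and inner bark of old stem 1 and between 0.962 and 1.12 for the other 12 libraries. The rule, the calls, the shares of the sum of squares and the fold changes of some named genes are also given without its 2 libraries. The TMM factors printed here were computed on all genes and give the TMM-scaled values, ranges and CVs below. The fitted fold changes rest on TMM factors computed after the filter on low counts, so they do not follow exactly from the TMM-scaled values.

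The CVs of the members ran from 5.07% to 9.36%, with a median of 8.14%. Over all 5374 genes with a mean of at least 50 CPM the median was 31.4%, and the next 100 genes in rank ran from 9.39% to 11.01%. No gap separated the members from the genes that follow. Potri.013G128500 and Potri.001G038100, ranks 99 and 100, had CVs of 9.34% and 9.36%, and Potri.019G051500 and Potri.001G314300, next in rank, had 9.39% in each case.

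**Figure D1:**
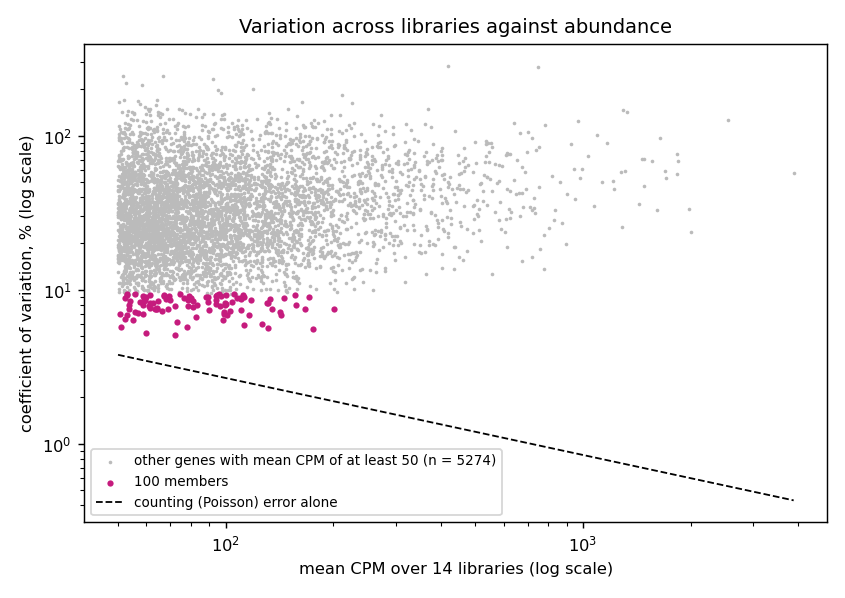
Coefficient of variation over the 14 libraries (percent, log scale) against mean CPM (log scale) for the 5374 genes with a mean of at least 50 CPM; the 100 members are coloured, and the dashed line is the CV that counting error alone gives. The members lie between 5.07% and 9.36%, above the dashed line and without a gap to the genes ranked next.

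Counting error made up a minor share of this variation. With Poisson counting alone the members would have had CVs between 1.88% and 3.76%, and this error made up a median of 14% of their squared CV, from 5.19% to 44.1%. For the next 100 genes the median share was 8.83%, and over the 5374 genes it was 0.762%. These figures cover counting error only, since the reads carried no molecular identifiers. The members' mean CPM ran from 50.6 to 201.4 with a median of 80.4, against a median of 84.9 over the 5374 genes. Only 1 member had a mean of 200 CPM or more, against 627 of the 5374 genes (11.7%).

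The member of lowest CV, Potri.007G044400, had 76.2, 71.0, 75.2 and 77.9 CPM in old outer bark (stems 1 to 4) and 73.2, 74.2, 72.7 and 75.3 CPM in old inner bark. In young bark it had 72.6, 72.4 and 66.0 CPM in the outer libraries (stems 1, 2 and 4) and 71.6, 65.9 and 67.5 CPM in the inner ones. The highest library was 1.18 times the lowest, and the outer and inner ranges overlapped at both ages. Old and young ranges overlapped in outer bark and did not overlap in inner bark, and on the TMM scale they overlapped in neither layer.

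Potri.007G009700, second in rank, had 62.2, 54.8, 57.6 and 57.1 CPM in old outer bark and 63.2, 58.5, 62.5 and 60.8 CPM in old inner bark. Its young values were 65.2, 58.9 and 57.9 CPM in outer bark and 64.1, 57.6 and 57.5 CPM in inner bark. Stem 1 was the highest library in each group, and all 4 groups overlapped. Without old stem 1, old outer bark overlapped neither old inner nor young outer bark, by total count or on the TMM scale. Potri.008G118500, the third, had 179.2, 193.9, 181.9 and 171.2 CPM in old outer bark and 168.6, 180.9, 183.0 and 168.0 CPM in old inner bark. In young bark it had 177.9, 168.9 and 151.0 CPM in the outer libraries and 176.1, 175.8 and 175.8 CPM in the inner ones, the lowest value of all being young outer stem 4.

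The other 7 of the 10 lowest CVs belonged to Potri.001G357900, Potri.015G099000, Potri.013G098700, Potri.002G018900, Potri.017G089600, Potri.005G033700 and Potri.002G074500, with CVs from 5.64% to 6.33%. Some of them still separated groups. Potri.002G074500 had 52.3, 48.5, 54.2 and 52.5 CPM in old outer bark, against 57.1, 57.7 and 54.5 CPM in young outer bark, with no overlap. Its inner values were 57.3, 51.4, 55.3 and 52.6 CPM in old stems, against 60.5, 59.4 and 59.0 CPM in young stems, again apart. On the TMM scale the ages overlapped in both layers, but without old stem 1 they overlapped in outer bark only. Potri.001G357900 had 137.2, 135.9, 133.9 and 133.3 CPM in old outer bark, against 131.1, 117.3 and 120.0 CPM in young outer bark, which also did not overlap.

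**Figure D2:**
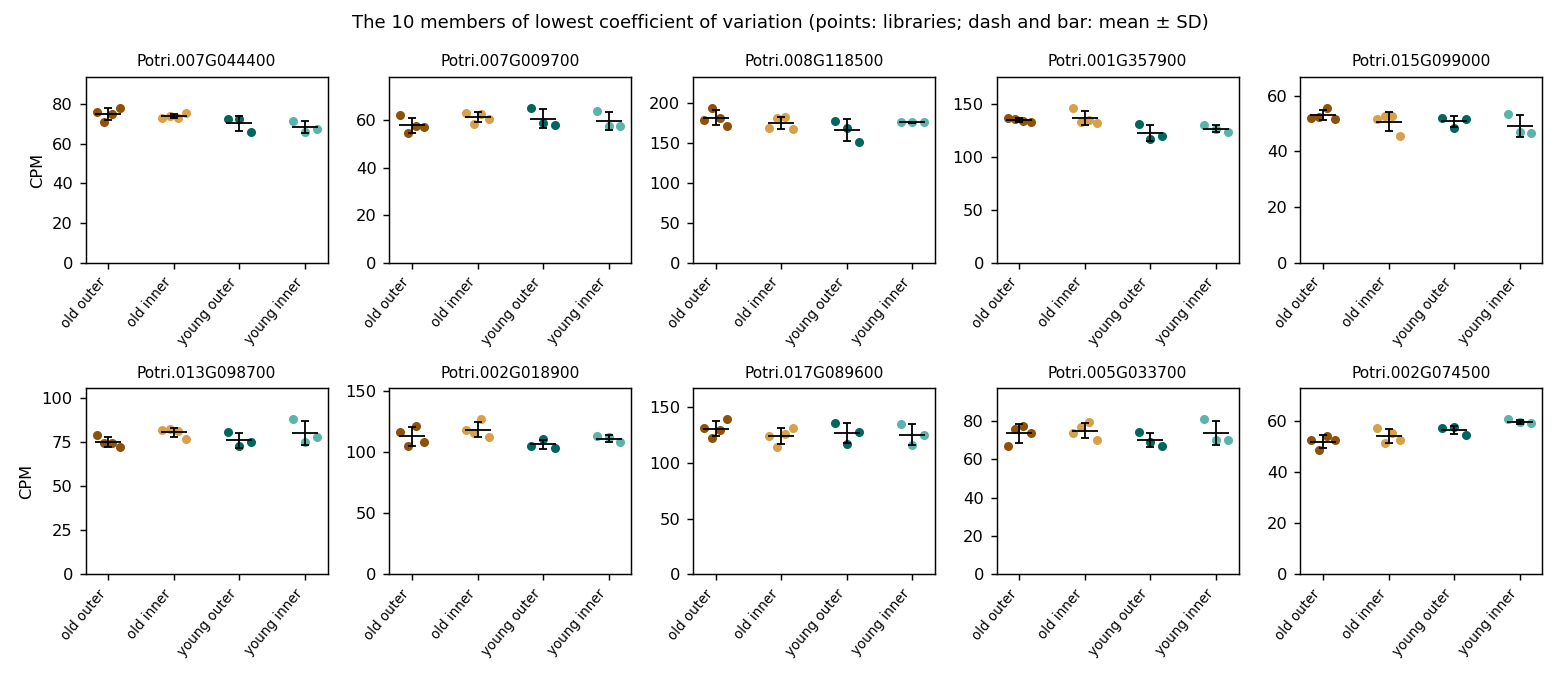
CPM of the 10 members of lowest CV in old outer, old inner, young outer and young inner bark; each point is a library, and the dash and bar are the mean and SD of the group (n = 4, 4, 3 and 3). For Potri.007G044400 every library lies between 65.9 and 77.9 CPM.

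At the upper end of abundance Potri.012G037100 ranged from 172.3 to 228.7 CPM, both in old inner bark (stems 2 and 1), with a mean of 201.4 CPM. Its log2 fold change between the ages in inner bark was -0.08, with overlapping ranges. Without old stem 1 it was -0.22, and the ranges did not overlap. Potri.003G217900 had 135.5, 164.7, 181.2 and 162.9 CPM in old outer bark, against 179.9, 195.5 and 173.6 CPM in young outer bark. Old outer stem 1 was its lowest library, and the ranges of the ages overlapped. Its log2 fold change between the ages in outer bark was -0.14, and -0.07 without old stem 1. Of the members of lowest mean, Potri.006G129100 averaged 50.6 CPM, with a range of 46.9 to 59.2 CPM, and Potri.015G099000 averaged 50.99 CPM, with a range of 45.6 to 55.6 CPM.

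Over all members, the highest library was between 1.18 and 1.52 times the lowest, with a median of 1.33 times. It was under 1.4 times for 93 members and for 149 of the 5374 genes (2.77%). The largest of these ratios was that of Potri.013G128500, where young inner stem 2 had 72.8 CPM and old outer stem 3 had 110.5 CPM. Group means were closer: the highest of the 4 was a median of 1.12 times the lowest, against 1.61 times over the 5374 genes, and it was under 1.1 times for 33 members and under 1.2 times for 94.

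Together the members took 0.886% ± 0.0185 of all counts in old outer libraries and 0.895% ± 0.0123 in old inner libraries (mean ± SD, n = 4 each). The share was 0.877% ± 0.031 in young outer libraries and 0.886% ± 0.0197 in young inner libraries (mean ± SD, n = 3 each). The lowest and highest libraries were young outer stem 4 (0.856%) and old outer stem 3 (0.913%), and the ranges of all 4 groups overlapped. The libraries in which single members peaked were spread: each of the 14 was the highest library of 2 to 15 members. Old inner stem 1 was the highest for 15 members and old outer stem 1 the lowest for 18, the largest number in each case.

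**Figure D3:**
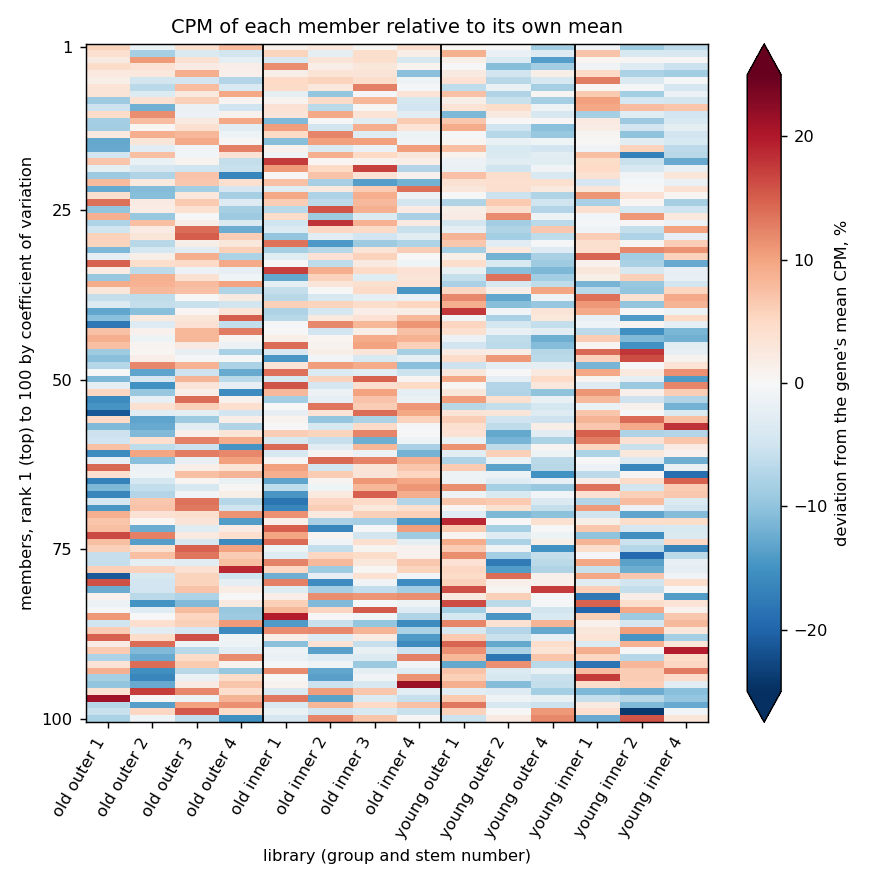
Deviation of each member's CPM from its own mean over the 14 libraries (percent, colour), with the members in rows from rank 1 at the top to rank 100 and the libraries in columns by group and stem number. Old inner stem 1 is the highest library for 15 members and old outer stem 1 the lowest for 18, and the colours deepen down the ranks as the CV grows from 5.07% to 9.36%.

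The variation of the members was divided by source. The sum of squares of each member's CPM was divided between age (1 degree of freedom), stems within an age (5), layer (1), layer by age (1) and the remainder (5). Stems took a median of 54.6% (quartiles 39.0% and 66.6%) and the remainder 8.96%. Age took 11.4%, layer 10.8% and layer by age 2.03%. Per degree of freedom the stems' median share was 10.9%, close to those of age and layer. That of the remainder, which also had 5 degrees of freedom, was 1.79%. Without old stem 1 the medians were 45.2% for stems (4 degrees of freedom), 16.9% for age and 10.1% for layer. These shares come from the values the rule used and are a description. Over the 5374 genes the median shares were 46.2% for stems, 29.4% for age and 4.40% for layer. Without old stem 1 the medians of the 5374 genes were 25.7% for stems, 46.1% for age and 6.75% for layer.

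Pairs of members did not vary in step when scaled by total count. Across the 14 libraries the Pearson correlation of CPM over 4950 pairs of members had a median of 0.08 and ran from -0.84 to 0.94. With TMM scaling the median was 0.50, from -0.71 to 0.97. All pairs share the libraries and their scaling factors, which enter every value of a library, so the coefficients are not independent.

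Old and young stems, and outer and inner bark, were compared with edgeR on the whole table, with 27673 genes tested and an adjusted p threshold of 0.05. None of the 100 members was called between layers in old stems (0 members), where 10.4% of all genes tested were called, or in young stems (0 members), where 0.387% were called. Likewise 0 members were called between the ages in outer bark and 0 in inner bark, where 22.0% and 29.1% of all genes were called. For the difference of the layer contrast between ages, 0 members and 0.0% of all genes were called. At an unadjusted p below 0.05 the numbers of members were 2, 1, 3, 1 and 1 in this order, and 22.7%, 13%, 37.1%, 41.9% and 4.43% of all genes. The shares of all genes moved with single libraries: with 1 library left out they ran from 5.62% to 12.5% between layers in old stems and from 0.0% to 0.834% in young stems, and from 9.66% to 26.5% and from 16.2% to 35.8% between ages in outer and inner bark. The rule chose the members on these same libraries, so nothing is read from these counts.

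Other tests called some members. DESeq2 called 2 members between the layers in old stems (14.6% of its genes with an adjusted p), Potri.001G378000 and Potri.002G075500, both lower in outer bark. It called 1 member in young stems (4.35%), Potri.011G109700, also lower in outer bark. Between the ages it called 6 members in outer bark (27.7%), with log2 fold changes of 0.18 to 0.31, and 0 in inner bark (31.9%), and it called 0 members for the difference of the layer contrast between ages (0.137%). With the stem number as a replicate block, edgeR called 9 members between layers in old stems (39.2% of all genes) and 7 in young stems (33.3%), with 1 member in both lists. Their log2 fold changes, outer over inner, ran from -0.23 to 0.20 in old and from -0.26 to -0.18 in young stems. With the stem as a random effect 0 members were called between the ages in outer bark (20.1% of all genes) and 0 in inner bark (25.3%). With the block the layer contrast differed between ages for 1 member (10.3% of all genes), Potri.011G109700. Leaving out both libraries of old stem 1, edgeR called 0 members between layers in old stems (14.5% of all genes), 0 in young stems (3.83%), 0 between the ages in inner bark (40.0%) and 0 for the difference of the layer contrast between ages (0.00727%). It then called 2 members between the ages in outer bark (31.3%), Potri.001G343500 and Potri.011G109700. The single genes named here beside their calls, other than Potri.001G378000, Potri.001G343500 and Potri.011G109700, were chosen after their values were seen.

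The authors' deposited tables list all 100 members in both layer comparisons. In the authors' deposited table for old stems edgeR called 0 of them at an adjusted p below 0.05, against 11.0% of its 30947 genes, and in the authors' deposited table for young stems 0 of them, against 4.01% of its 31096 genes. In the authors' deposited tables the log2 fold changes of the members, which run inner over outer, lay between -0.24 and 0.20 in old and between -0.14 and 0.26 in young stems.

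The fitted log2 fold changes of the members on the TMM scale were small. Between outer and inner bark they lay between -0.23 and 0.20 in old stems and between -0.26 and 0.14 in young stems. The median absolute value was 0.09 in old and 0.07 in young stems, against 0.29 and 0.30 over all genes tested. Between old and young stems they lay between -0.14 and 0.27 in outer and between -0.18 and 0.30 in inner bark. The median absolute values were 0.08 and 0.11, against 0.52 and 0.59 over all genes tested. The genes tested include many below the minimum mean CPM of the rule, so these medians do not compare genes of like abundance. Small fold changes of the members also follow in part from the rule, which kept low CVs in these same libraries. The standard errors of the members had medians of 0.11 for the layer contrast in old stems and 0.13 in young stems, and 0.12 for the age contrast in either layer. A difference of about the size of these errors in a single member was thus not detectable here. Larger ones also went uncalled by edgeR without the block, such as -0.23 ± 0.09 (SE) for Potri.001G378000 between layers in old stems. Potri.001G105100, at 0.30 ± 0.15 (SE) between ages in inner bark, was not called either. A missing call therefore does not show equal levels.

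**Figure D4:**
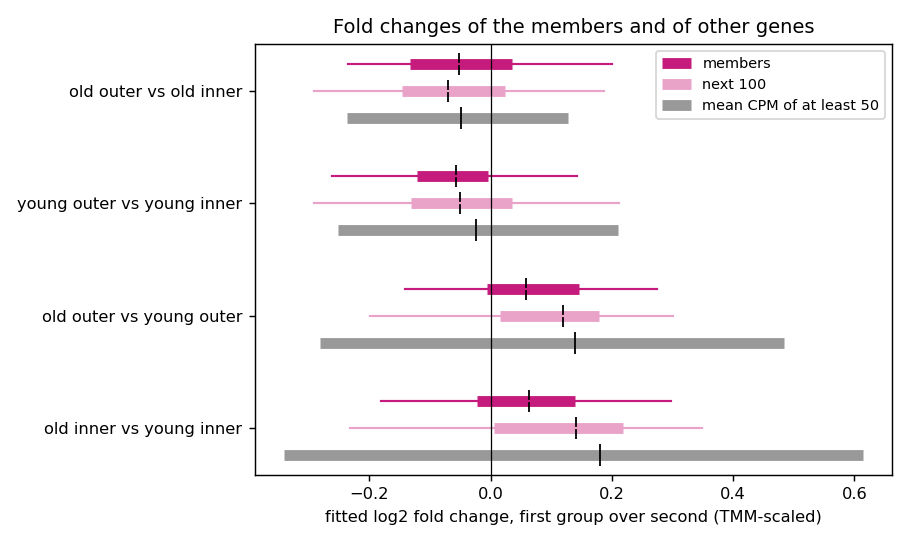
Fitted log2 fold changes on the TMM scale, first group over second, for the 100 members, the next 100 genes in rank and the 5374 genes with a mean of at least 50 CPM; thick bars span the quartiles, ticks mark medians, and thin lines run from the lowest to the highest value (not drawn for the 5374 genes). The members lie between -0.26 and 0.30 in the 4 comparisons.

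The number of members on either side of 0 moved with the scaling, while the median of the members kept its sign in each contrast. On the TMM scale 33 members were above 0 between outer and inner bark in old stems and 25 in young stems, against 41.6% and 46.9% of the 5374 genes. By total count the group mean of 42 and 46 members was higher in outer bark, and with RLE factors 41 and 10 members were above 0. The median log2 difference in young stems was -0.06 on the TMM scale, -0.0062 by total count and -0.11 with RLE factors. Between old and young stems the numbers above 0 were 73 in outer and 68 in inner bark on the TMM scale, 54 and 61 by total count and 86 and 56 with RLE factors. Of the 5374 genes, 59.6% in outer and 59.7% in inner bark were above 0 on the TMM scale. These TMM counts are from the fit, with factors computed after the filter on low counts. In the fit with no filter, 41 and 16 members were above 0 between layers in old and young stems. Between the ages 91 were then above 0 in outer and 74 in inner bark. Going from TMM to RLE factors moved the median of all genes by less than 0.1 log2 units in each contrast.

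The largest layer differences of either sign were found in 4 members. Potri.001G378000 had 48.3, 59.6, 59.8 and 58.5 CPM in old outer bark, against 60.1, 63.4, 69.9 and 67.3 CPM in old inner bark (log2 fold change -0.23 ± 0.09 SE). The ranges did not overlap, and old outer stem 1 was lowest. Without old stem 1 the fold change was -0.20 and the ranges still did not overlap. Potri.005G146000 went the other way, with 55.7, 61.0, 62.0 and 64.8 CPM in old outer bark and 50.2, 55.3, 52.9 and 49.3 CPM in old inner bark (0.20 ± 0.10 SE). These ranges did not overlap either, although the highest inner and the lowest outer value were close.

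The fitted layer difference of Potri.011G109700 had opposite signs at the 2 ages. It had 51.4, 56.4, 61.0 and 59.2 CPM in old outer bark and 51.9, 50.9, 47.6 and 53.4 CPM in old inner bark (log2 fold change 0.13 ± 0.09 SE). In young stems it had 53.2, 47.8 and 49.9 CPM in outer bark and 61.0, 56.1 and 57.9 CPM in inner bark (-0.26 ± 0.11 SE). The young layers did not overlap and the old ones did, but without old stem 1 the old layers did not overlap either (0.19). The old layer contrast exceeded the young one by 0.39 ± 0.14 on the log2 scale (SE). This was the largest such difference among the 100 members, for which the gene was named, and this fit did not call it. Potri.013G128500 had the largest positive layer difference in young stems (0.14 ± 0.13 SE), with 101.5, 96.0 and 106.2 CPM in outer bark and 99.9, 72.8 and 95.3 CPM in inner bark, where inner stem 2 was the lowest library.

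Between the ages, Potri.001G343500 had 119.9, 114.0, 114.6 and 122.6 CPM in old outer bark, against 107.3, 97.8 and 98.8 CPM in young outer bark (log2 fold change 0.27 ± 0.12 SE). In inner bark it had 122.7, 112.8, 116.6 and 116.6 CPM in old stems, against 104.6, 95.5 and 98.2 CPM in young stems (0.27 ± 0.12 SE). Every old library lay above every young one in both layers, so this member separated the ages completely despite a CV of 8.75%. It was named for the largest fold change between the ages in outer bark among the members. By total count the ages did not overlap for 11 members in outer and 20 in inner bark. The layers did not overlap for 11 members in old and 15 in young stems. No share over all genes is given, so a separation in a single member is a description only. Potri.001G105100 had 89.4, 98.2, 97.7 and 98.1 CPM in old inner bark, against 72.3, 89.5 and 75.6 CPM in young inner bark (0.30 ± 0.15 SE), and old stem 1 and young stem 2 overlapped by total count but not on the TMM scale. Potri.003G033700 had the most negative age difference in inner bark (-0.18 ± 0.14 SE), at 110.5, 96.8, 109.9 and 106.2 CPM in old stems, against 122.2, 111.9 and 133.9 CPM in young stems. These ranges did not overlap by total count but did on the TMM scale, where old stem 1 stood at 127.0 CPM and young stem 1 at 115.5 CPM. Without old stem 1 they did not overlap on either scale, and the fold change was -0.24.

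Membership was then measured against the choice of scaling. Only 39 of the 100 members stayed among the 100 lowest CVs when the libraries were scaled by TMM, and 42 when they were scaled by RLE factors. The members did not move far: their median rank with TMM was 132.5 and the farthest was at 676 of 5381 genes. Their median CV was 10.4% with TMM scaling and 9.98% with RLE factors, against 8.14% by total count. Potri.007G044400, first by total count, had a CV of 10.2% with TMM scaling, while Potri.005G194700, at rank 40 by total count with 7.79%, had the lowest TMM-scaled CV of all, 4.38%.

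The change of scaling was largest in old stem 1. By total count the median member stood at 98.3% of its own mean in old outer stem 1 and 100.3% in old inner stem 1. With TMM scaling it stood at 117.1% and 115.2% there, against 92.1% to 101.8% in the other 12 libraries. The rule picked genes that were level by total count, so their TMM-scaled level in old stem 1 follows from its scaling factors and is not a separate result. Which of the scalings is nearer to the amount of each transcript was not tested.

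**Figure D5:**
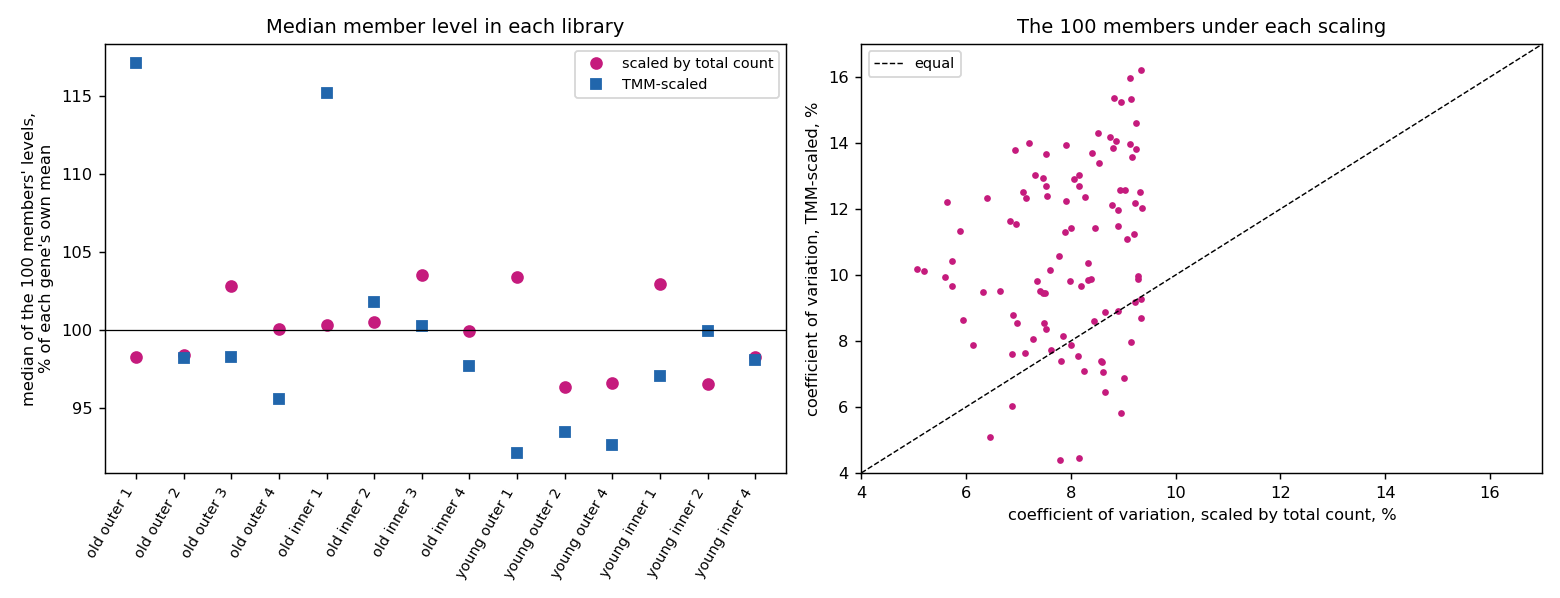
Left, the median level of the 100 members in each library as a percent of each gene's own mean, scaled by total count (circles) or by TMM (squares). Right, the CV of each member under both scalings with the line of equality. With TMM scaling old outer stem 1 (117.1%) and old inner stem 1 (115.2%) stand above the other libraries, and 82 of the 100 members have a higher CV than by total count.

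Because the members were chosen on all 14 libraries, the rule was also applied with both libraries of each stem left out in turn, and the resulting 100 genes were measured in the stem that had no part in the choice. The lists held 53 to 90 of the 100 members. In the libraries left out the chosen genes deviated from their mean in the other 12 by a median of 8.02% (median over the 14 libraries), against 23.4% for all genes that met the CPM minimum. The exception was old stem 1. There the genes chosen on the other stems deviated by a median of 18.6% in outer and 16.7% in inner bark, and 27 and 29 of 100 lay within 10% of their mean, against 47 to 73 in the other 12 libraries. Over all genes that met the minimum, old stem 1 also deviated most, by a median of 38.6% in outer and 33.3% in inner bark, against 16.8% to 31.0% in the other libraries.

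Lists chosen on the libraries of 1 age or 1 layer differed from each other. The 100 genes of lowest CV in the 8 old libraries and the 100 in the 6 young libraries shared 9 genes, and each list held 26 of the members. The 100 of outer bark and the 100 of inner bark shared 37 genes and held 54 and 64 of the members. The layers of a stem share that stem, whereas the ages share none, so these overlaps cannot be set against each other directly. The list from the old libraries had a median CV of 5.29% where it was chosen and 11.2% in the young libraries, where all 5374 genes had 19.1%. The list from the young libraries had 4.48% where it was chosen and 12.6% in the old libraries, where all 5374 genes had 25.9%. The list from outer bark had 6.65% where it was chosen and 9.29% in inner bark, where all 5374 genes had 30.5%. The list from inner bark had 7.22% where it was chosen and 8.49% in outer bark, where all 5374 genes had 28.9%.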

How the data were processed

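The members and gene lists were chosen with earlier results of these data known. The authors deposited raw read counts per gene, as the file headers and the whole-number values show. The authors' deposited tables of layer comparisons hold log2 fold changes and adjusted p-values, per the file headers. Tools listed in the submitters' processing notes, with no role or version, are HTSeq, TopHat, Bowtie, Cufflinks, Trimmomatic, CASAVA, edgeR and DESeq. For the genome build, the sources used here give none. Libraries were not strand-specific per the labels' protocols, so overlapping antisense genes, and near-identical copies, may share reads.

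CPM was computed from the total counts. TMM-scaled and RLE-scaled values of libraries used factors computed on all genes, whereas the edgeR fits used factors computed after filterByExpr, except the fit with no filter. Differences were fitted with edgeR 4.0.16 under R 4.3.3 (filterByExpr, TMM, robust quasi-likelihood F test, 4 group means, 27673 genes tested and 13662 removed, Benjamini-Hochberg adjustment), after a test on simulated counts. Alternatives were RLE factors, DESeq2 1.42.0, no filter on low counts, a replicate block, the stem as a random effect (limma 3.58.1), other forms of the rule and leaving out libraries. SDs are over libraries of a group. Libraries of 1 group always differed by more than sampling noise (chi-square per degree of freedom of at least 17.4).

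Deviations from group means of same-numbered outer and inner libraries correlated across genes at 0.60 to 0.82, and each library correlated best with its own number, so the numbers were taken to pair the layers. Per stem this leaves 5 residual degrees of freedom with the block, against 10 without. The fit of group means treats the layers of a stem as independent, so its age p-values may be too small and its layer p-values too large. All count columns were mapped to a sample. The rule for naming genes took the 10 lowest CVs, the 3 highest and 3 lowest means, ranks 99 to 102, and the member of largest and of smallest fold change in each of 5 contrasts; its part on usual reference genes could not be filled.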

Additional observations from a re-analysis of the deposited data

Results flagged for a closer look

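The values of the named genes and 4 library measures were examined for a single value far from the others in old outer and old inner bark, in 56 sets of 4 values. A value stood apart in 6 of them, where chance gives about 1 in 20 for independent sets; these sets share libraries. Potri.015G099000 was highest in old outer stem 3 (55.6 CPM) and lowest in old inner stem 4 (45.6 CPM), each apart from the other 3 stems. Potri.001G378000 was low in old outer stem 1 (48.3 CPM). Potri.001G105100 was low in old inner stem 1 (89.4 CPM). The median member level was highest in old inner stem 3, at 103.5% of each gene's own mean. Old inner stem 4 had the lowest total count, 11944485.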

How the results depend on the processing

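Membership of the list moved most. Of the 100 members, 39 were kept with TMM scaling, 42 with RLE factors, 47 with a minimum mean of 20 CPM, 30 with a minimum of 100 CPM, 23 by the CV of the 4 group means, 26 on the old libraries, 26 on the young libraries, 54 on outer and 64 on inner bark, 39 without stem 1 of both ages and 53 without old stem 1, these last 2 added after seeing the data. The CPM minimums change which genes compete, and the other alternatives use other scalings or fewer values; further causes were not tested. The SD of log2(CPM + 1) kept 98 members and subtracting the counting variance kept 97. Leaving out 1 library kept 82 to 95. The median CV was 10.4% with TMM scaling, 9.98% with RLE factors and 7.80% to 8.24% with 1 library left out.

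The counts of members called were 0 in edgeR for all 5 contrasts with RLE factors, with no filter and without stem 1 of both ages. Between layers in old and young stems and between ages in outer and inner bark, the shares of all genes were then 10.5%, 0.184%, 22.7% and 28.3% with RLE factors, 7.66%, 0.0745%, 15.7% and 20.5% with no filter, and 18.7%, 5.39%, 37.5% and 47.1% without stem 1 of both ages. Without old stem 1, 2 members were called between the ages in outer bark (31.3%) and 0 in the other 4 contrasts. DESeq2 called 2 and 1 members between the layers in old and young stems (14.6% and 4.35% of all genes) and 6 between the ages in outer bark (27.7%). With the replicate block the counts were 9 and 7 for the layers (39.2% and 33.3% of all genes) and 1 for the difference between ages (10.3%). With the stem as a random effect 0 members were called between ages in either layer (20.1% and 25.3% of all genes). With 1 library left out the counts were 0 to 0 for both layer contrasts and the difference between ages, and 0 to 1 for the ages in outer bark (Potri.011G109700 without old inner replicate 1, where 26.5% of all genes were called) and in inner bark (Potri.001G343500 without old outer replicate 1, 35.8%). With 4 and 3 libraries a group, differences of the size of the standard errors, about 0.11 to 0.13 log2 units, were not detectable in single members. Larger ones, up to 0.30 log2 units between ages in inner bark (Potri.001G105100), also went uncalled in the fit of group means.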

Other observations

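Of the 100 members, 30 were also among the 100 lowest CVs with TMM scaling, with RLE factors, by the SD of log2(CPM + 1) and with any 1 library left out. They were picked out after the values were seen, so their values are a description. In 6 of the 30 the CV was below 8% under all 3 scalings: Potri.013G089500, Potri.014G089200, Potri.014G145200, Potri.005G194700, Potri.015G046500 and Potri.005G033700. Potri.013G089500 had CVs of 6.46% by total count, 5.09% with TMM scaling and 4.24% with RLE factors. Its TMM-scaled values were 57.1, 56.3, 51.1 and 54.8 CPM in old outer bark, 53.5, 53.2, 49.1 and 54.4 CPM in old inner bark, 49.7, 50.8 and 50.3 CPM in young outer bark and 50.5, 49.3 and 50.2 CPM in young inner bark. Every old outer library was above every young outer one on that scale, with the TMM factors computed on all genes. By total count the ages overlapped in outer bark. The fitted log2 fold change there, with TMM factors computed after the filter on low counts, was 0.06. Potri.014G089200 had CVs of 6.88%, 6.04% and 5.46% in the same order, and Potri.005G194700 had 7.79%, 4.38% and 4.78%.

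By the chromosome number in the identifiers, the members were spread over 18 of the 19 chromosomes. Chromosome 1 held 14 members (and 11.9% of the 5374 genes) and chromosome 14 held 9 (5.36%), while chromosome 9 held 1 (5.73%) and chromosome 19 held 0 (2.08%). Only Potri.010G092700 and Potri.010G093200 lay within 5 rows of each other in the table, and both were among the 30.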
